A study of Mus musculus with 8 samples.

Results

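The genes described here are 47 nuclear genes that encode subunits of the mitochondrial oxidative phosphorylation system. They were listed by symbol out of 41730 gene rows, with earlier results of these data known. They comprise 17 subunits of complex I, 4 of complex II, 6 of complex III, 10 of complex IV, 9 of complex V and Cycs, the gene of cytochrome c. The list leaves out some subunits of complexes I, III and V, and sums, highest and lowest values of a complex cover the listed members. Messenger RNA was counted by 3' end sequencing in mouse CD8+ T cells isolated as naive cells with an isolation kit. Cells received 2 µM RGX-104, which activates the liver X receptors (LXR), or its solvent DMSO for 24 h. Each group held 4 libraries, numbered 1 to 4 for DMSO and 5 to 8 for RGX-104, and the sources used here do not give strain, sex or age of the mice. Nothing in the labels says whether the libraries came from separate animals or cultures, so p-values measure only the spread between libraries, which may be technical. In a bulk sample, fewer cells of a type and less RNA per cell cannot be told apart.

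Oxidative phosphorylation passes electrons from NADH and succinate through complexes I to IV to oxygen, pumps protons across the inner mitochondrial membrane, and lets complex V use the gradient to make ATP. Complex II is encoded wholly in the nucleus. The other complexes also need a few subunits made from mitochondrial DNA, so that 2 genomes must supply parts for one machine. Naive T cells are quiescent and draw most of their ATP from this system, and they raise both glycolysis and respiration when activated.

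Library totals lay between 16196217 and 28287445 counts. DMSO replicates 1 to 3 had counts for 9772 to 10194 genes, DMSO replicate 4 for 10908 and the RGX-104 libraries for 10442 to 10990. Of the defining markers of CD8 T cells, Cd8a lay at 627 to 703 counts per 1000000 (CPM) in DMSO and 722 to 773 CPM with RGX-104, and Cd8b1 at 686 to 749.5 and 627 to 758 CPM. The Cd8a values did not overlap between the groups (log2 fold change 0.13, unadjusted p = 0.236). Ccr7, a homing receptor of naive T cells, lay at 540.2 to 881 and 697 to 919 CPM. Of the other naive T cell genes, Lef1, a transcription factor gene, lay at 338 to 369 and 204 to 264 CPM (-0.59, unadjusted p = 4.63e-04, edgeR adjusted p = 0.348), and Il7r, a cytokine receptor gene, at 354 to 445 and 295 to 353 CPM (-0.34, unadjusted p = 0.0213, edgeR adjusted p = 1.00). Both lay lower in all RGX-104 libraries than in any DMSO library, while Cd8b1, Ccr7, Tcf7, Cd3d, Cd3e and Cd3g overlapped. The part of these markers in the values of the subunit genes was not tested. Markers of B cells summed to 20.9 to 111 and 74.5 to 87.5 CPM, and those of macrophages to 6.24 to 30.9 and 8.06 to 24.2 CPM. Markers of dendritic, NK, CD4 T, erythroid and neutrophil cells summed to at most 38.8 CPM in any library. Of the dendritic markers Itgax and Xcr1 had no count, nor had the NK marker Ncr1. Messages that LXR induces (Srebf1, Mylip, Abca1 and Abcg1) summed to 190 to 320 CPM with DMSO and 1728 to 1955 CPM with RGX-104, which checks the labels.

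No subunit gene passed the test. Of the 47 members 43 had enough counts to be tested, and 0 were called higher or lower (edgeR quasi-likelihood test, adjusted p under 0.05), against 11 of 10037 genes tested, or 0.11%. On the same genes DESeq2 called 1 member higher, Atp5d, and limma-voom called 0. At an unadjusted p under 0.05, 1 member was higher and 0 were lower, against 1.98% and 1.82% of all genes tested, or 3.81% in either direction. The log2 fold changes, RGX-104 over DMSO, ran from -0.32 to 0.58 with a median of 0.06, beside a median of 0.01 over all genes tested. They were above 0 in 26 members (60.5%) and below 0 in 17, and 50.9% of all genes tested were above 0. The values of 2 members, Atp5d and Atp5g3, were higher in all RGX-104 libraries than in any DMSO library, against 2.2% of all genes tested, and 0 members had all RGX-104 values lower, against 1.35%.

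The intervals say what sizes of change remain possible. For 41 of the 43 tested members the 95% interval of the fold change lay within 2-fold in either direction, and for 23 it lay within 1.5-fold. The exceptions to the first were Sdhd and Cycs, the tested members of lowest level. Over all genes tested, 34.3% of intervals lay within 2-fold, and 1243 of 10037 lay within 1.5-fold. The interval held 0 in 42 members and excluded it in 1, Atp5d. An interval that holds 0 does not show that a gene was unchanged.

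**Figure D1:**
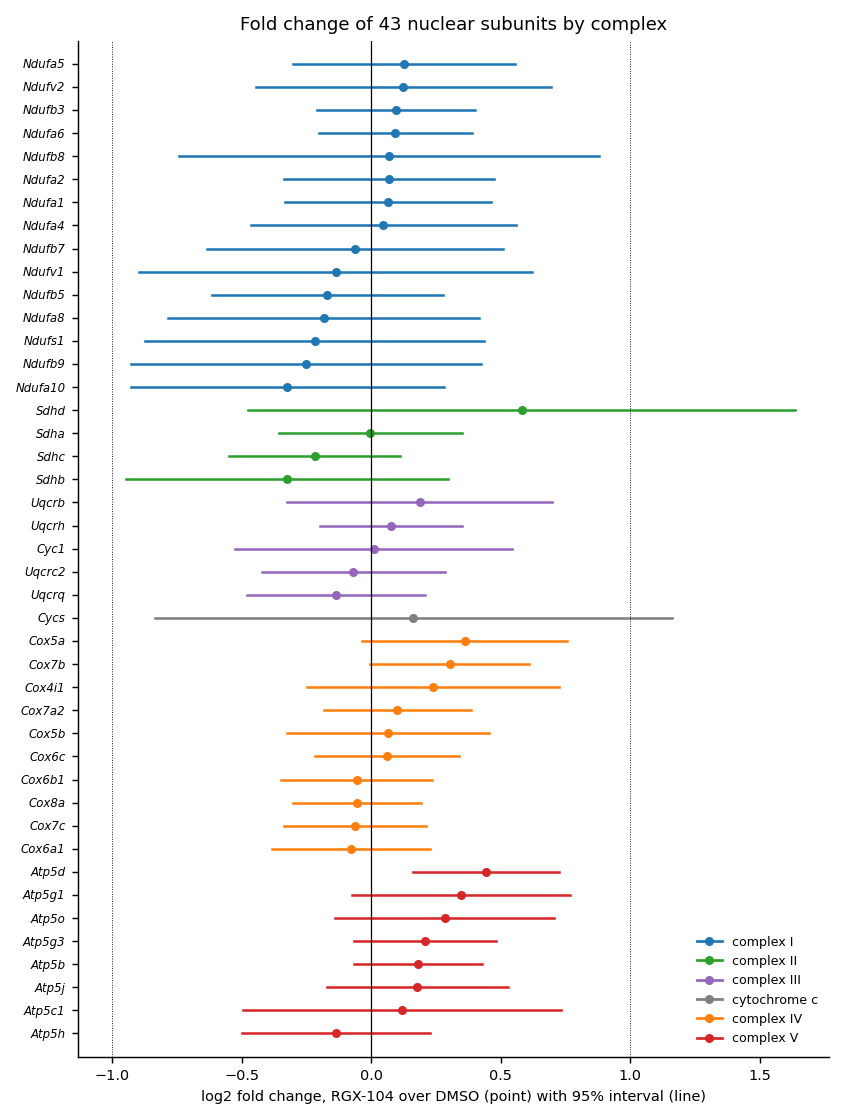
Log2 fold change of each of the 43 tested members, RGX-104 over DMSO (x axis, point), with its 95% interval (line), grouped and coloured by complex (y axis: genes). Dotted lines mark a 2-fold change in either direction; only the lines of Sdhd and Cycs cross one, and only the line of Atp5d lies clear of 0.

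Because the method makes a read from the 3' end of a transcript, CPM need no length correction between genes. How reads were assigned to genes is not given, so CPM of different genes need not follow their transcript numbers. For scale, Gapdh lay at 93.9 ± 38.2 CPM with DMSO and 94.7 ± 59.1 CPM with RGX-104. Words for abundance refer here to CPM. On this scale the tested members lay high, with a median level of 182 CPM over the 8 libraries beside 30.0 CPM over all genes tested. The level was at least 100 CPM in 28 members (65.1%), and in 18.2% of all genes tested. The members spanned 22.4 CPM (Sdhd) to 839 CPM (Atp5b). Summed, the members took 0.854% to 0.970% of all counts in the DMSO libraries and 0.935% to 1.04% in the RGX-104 libraries. In CPM the sums were 8543, 9614, 9219 and 9697 in DMSO replicates 1 to 4 and 10447, 9759, 9725 and 9352 in RGX-104 replicates 5 to 8. The groups overlapped, with means of 9269 ± 527 and 9821 ± 456 CPM (SD, n = 4 each) and a log2 ratio of 0.08. DMSO replicate 1 held the lowest sum and RGX-104 replicate 5 the highest.

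**Figure D2:**
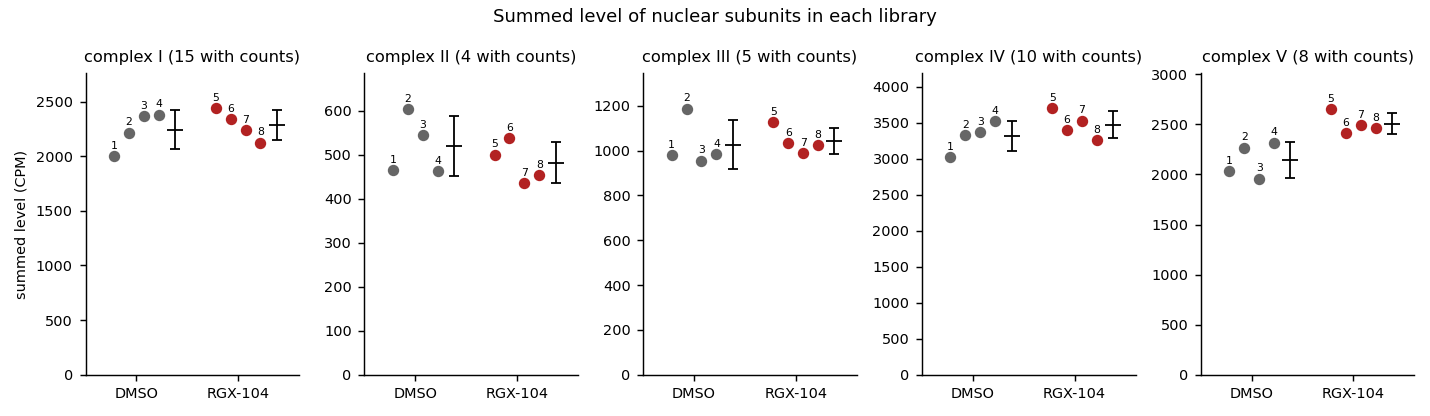
Summed level of the members with counts in each complex (y axes, CPM, each from 0) in the 4 DMSO and 4 RGX-104 libraries (points, numbered by replicate), with mean and SD beside each group. The groups overlap in complexes I to IV, whereas in complex V the RGX-104 libraries lie at 2415 to 2653 CPM and the DMSO libraries at 1959 to 2319 CPM.

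Complex I oxidises NADH and is the largest complex of the chain. Its 17 members summed to 2242 ± 177 CPM with DMSO and 2288 ± 136 CPM with RGX-104 (mean ± SD, n = 4 each), and the libraries overlapped. Of the 15 log2 fold changes tested 8 were above 0 and 7 below (median 0.05). The core subunits that carry flavin and iron-sulphur clusters, Ndufv1, Ndufv2 and Ndufs1, lay at 76.1, 64.9 and 59.2 CPM over the 8 libraries, with log2 fold changes of -0.14, 0.12 and -0.22. The 7 tested accessory subunits named Ndufa ranged from 72.5 to 471 CPM and from -0.32 to 0.12 in log2 fold change. The 5 named Ndufb, which belong to the membrane arm, ranged from 56.8 to 272 CPM and from -0.25 to 0.09. Ndufa4, listed here by its name, is now held to be a subunit of complex IV, and it lay at 74.6 ± 13.8 CPM with DMSO and 77.8 ± 8.77 CPM with RGX-104.

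The most abundant member of complex I was Ndufa6, an accessory subunit of the matrix arm, at 453, 471, 396 and 491 CPM with DMSO and 529, 401, 593 and 433 CPM with RGX-104. The groups overlapped, and RGX-104 held both the highest value and one of the lowest (log2 fold change 0.09, 95% interval -0.20 to 0.39). Ndufa5, with the highest log2 fold change of the listed members, lay at 108, 176, 156 and 151 CPM with DMSO and 217, 138, 132 and 165 CPM with RGX-104. Only RGX-104 replicate 5 stood above the DMSO libraries (0.12, edgeR adjusted p = 1.00), and without it the log2 fold change was -0.05. Ndufa10, with the lowest, lay at 85.9, 62.7, 101 and 94.1 CPM with DMSO and 53.6, 114, 56.2 and 53.4 CPM with RGX-104. Of the RGX-104 libraries 3 lay below all DMSO libraries and replicate 6 above all of them (-0.32, 95% interval -0.93 to 0.28), and without replicate 6 it was -0.68 (edgeR adjusted p = 1.00).

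Complex II is succinate dehydrogenase, which links the tricarboxylic acid cycle to the chain. Its 4 members summed to 519 ± 67.7 CPM with DMSO and 482 ± 46.0 CPM with RGX-104 (n = 4 each), with a median log2 fold change of -0.11, 1 member above 0 and 3 below. Sdha, the flavoprotein that oxidises succinate, had a log2 fold change of -0.0039 (95% interval -0.36 to 0.35). Sdhc, a membrane anchor and the most abundant of the 4, lay at 216, 234, 204 and 200 CPM with DMSO and 198, 211, 162 and 171 CPM with RGX-104. RGX-104 replicates 5, 7 and 8 lay below all DMSO libraries and replicate 6 among them (-0.22, 95% interval -0.55 to 0.11). Sdhb, the iron-sulphur subunit, spread widely within DMSO, at 56.7, 166, 110 and 78.3 CPM, and lay at 57.7, 99.7, 72.1 and 102 CPM with RGX-104. Its log2 fold change of -0.32 (95% interval -0.95 to 0.30) was -0.0051 without DMSO replicate 2, its highest library.

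The other anchor, Sdhd, had the lowest level and the highest log2 fold change of the 43 tested members. It lay at 10.7, 25.5, 17.3 and 17.8 CPM with DMSO and 25.4, 23.0, 29.8 and 29.6 CPM with RGX-104. DMSO replicate 2 lay within the RGX-104 range and the other 3 DMSO libraries below it. The fold change of 0.58 had an interval from -0.47 to 1.64 (edgeR adjusted p = 1.00), which reached beyond 2-fold higher.

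Complex III passes electrons from ubiquinol to cytochrome c. Its members summed to 1027 ± 108 CPM with DMSO and 1043 ± 58.5 CPM with RGX-104 (n = 4 each), with 3 of 5 tested members above 0 and a median log2 fold change of 0.01, which was -0.01 when scaled by DESeq2 size factors. Cyc1, the haem-carrying cytochrome c1, lay at 98.3 ± 31.0 and 100.1 ± 23.7 CPM, and Uqcrc2, a core protein, at 226 ± 45.6 and 218 ± 25.4 CPM. The small hinge protein Uqcrh was the most abundant, at 439, 381, 384 and 366 CPM with DMSO and 487, 392, 409 and 384 CPM with RGX-104. These ranges overlapped (log2 fold change 0.08, 95% interval -0.20 to 0.35). Uqcrb lay at 67.5, 108, 71.1 and 121 CPM with DMSO and 115, 126, 84.8 and 97.6 CPM with RGX-104, with the highest log2 fold change of the listed members (0.19, 95% interval -0.32 to 0.70). The unlisted subunits Uqcr10 and Uqcr11 lay at 0.34 and 0.39 (edgeR adjusted p = 1.00 for both), with overlapping groups. Uqcrq, with the lowest, lay at 175, 264, 237 and 198 CPM and 185, 218, 192 and 208 CPM (-0.14, 95% interval -0.48 to 0.21). For both genes the groups overlapped.

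Cycs encodes cytochrome c, the soluble carrier between complexes III and IV that also triggers apoptosis when it leaves the mitochondrion. Its counts were low beside those of the tested members of complexes III and IV, at 37.5, 14.9, 17.8 and 29.1 CPM with DMSO and 19.97, 28.5, 34.8 and 29.5 CPM with RGX-104. How reads were assigned to genes is not given, so this does not rank its transcripts. The groups overlapped throughout, and the log2 fold change of 0.16 had an interval from -0.83 to 1.16.

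Complex IV reduces oxygen to water, and its nuclear subunits surround a core made in the mitochondrion. They gave the largest sum of the listed members, 3312 ± 208 CPM with DMSO and 3474 ± 191 CPM with RGX-104 (n = 4 each). Single members ranged from 149 to 519 CPM over the 8 libraries. With the remaining subunits added, complex I summed to 4181 ± 302 and 4342 ± 355 CPM, and complex V to 3903 ± 359 and 4363 ± 245 CPM. These means lay above those of complex IV. Of the 10 members 6 lay above 0 and 4 below, with a median log2 fold change of 0.06. That median was -0.05 against DMSO replicate 4 alone, the DMSO library with the most genes detected. Cox6c, the most abundant, lay at 472, 453, 573 and 523 CPM with DMSO and 566, 437, 618 and 510 CPM with RGX-104 (log2 fold change 0.06, 95% interval -0.22 to 0.34). The RGX-104 values lay on both sides of the DMSO range. Cox6a1, with the lowest log2 fold change, lay at 357, 416, 382 and 389 CPM and 407, 446, 293 and 334 CPM (-0.08, 95% interval -0.38 to 0.23).

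The highest log2 fold change in complex IV was that of Cox5a, a matrix-side subunit. It lay at 126, 162, 139 and 207 CPM with DMSO and 246, 217, 186 and 175 CPM with RGX-104. All RGX-104 libraries lay above DMSO replicates 1 to 3, whereas DMSO replicate 4 lay among them. This gave 0.36 (95% interval -0.04 to 0.76, edgeR adjusted p = 1.00), and against DMSO replicate 4 alone it was -0.04. Cox4i1, a subunit through which ATP is known to inhibit the complex, also had its highest value in DMSO replicate 4, at 129, 179, 110 and 271 CPM, beside 235, 219, 197 and 174 CPM with RGX-104. Cox7b, another small subunit, lay at 259, 333, 229 and 291 CPM with DMSO and 321, 377, 349 and 342 CPM with RGX-104, where DMSO replicate 2 alone overlapped (0.30, unadjusted p = 0.0522, edgeR adjusted p = 1.00). Cox4i1 and Cox7b are named here after their values were seen.

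Complex V is the ATP synthase, a rotary enzyme with a catalytic F1 head, a ring of subunit c in the membrane and a stalk that holds the head in place. The 9 listed members formed the only listed complex whose summed level did not overlap between the groups, at 2032, 2268, 1959 and 2319 CPM with DMSO and 2653, 2415, 2494 and 2461 CPM with RGX-104. The means were 2144 ± 176 and 2506 ± 103 CPM (SD, n = 4 each), a log2 ratio of 0.22. With the 7 remaining complex V subunits added (Atp5e, Atp5pb, Atp5g2, Atp5j2, Atp5k, Atp5l and Atp5md), the sums were 3725, 4314, 3504 and 4069 CPM with DMSO and 4715, 4343, 4191 and 4201 CPM with RGX-104. The groups then overlapped, DMSO replicate 2 lying above RGX-104 replicates 7 and 8, and the log2 ratio was 0.16. Of those 7 subunits 5 lay above 0 and 2 below, with a median log2 fold change of 0.12. No p is given for these sums, since the members were chosen with results of these data known. Of the 8 log2 fold changes tested 7 were above 0 and 1 below (median 0.19). As a share of the summed level of all members, complex V took 23.8%, 23.6%, 21.2% and 23.9% in DMSO and 25.4%, 24.7%, 25.6% and 26.3% in RGX-104. Genes detected also differed, at 9772 to 10194 in DMSO replicates 1 to 3 and at 10442 or more elsewhere, and their part in this result was not tested beyond 2 alternative fits. With genes detected as a covariate the median was 0.17. Against DMSO replicate 4 alone it was 0.10, where the median of all genes tested moved to 0.13.

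**Figure D3:**
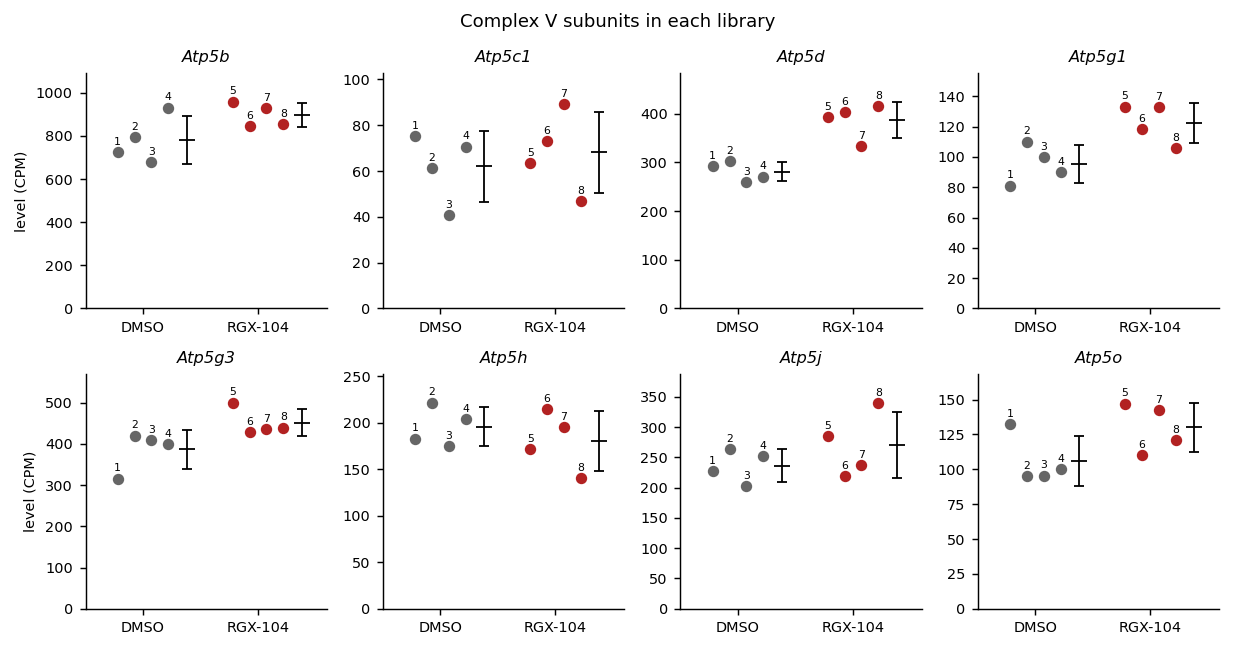
Level of the 8 complex V members with counts (y axes, CPM, each from 0) in the 4 DMSO and 4 RGX-104 libraries (points, numbered by replicate), with mean and SD beside each group. All RGX-104 points lie above all DMSO points for Atp5d and for Atp5g3, and the points overlap for the others.

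Within the F1 head, Atp5d, the delta subunit of the central stalk that turns with the ring, differed most. It lay at 292, 302, 259 and 271 CPM with DMSO and 393, 403, 333 and 416 CPM with RGX-104, so that the lowest RGX-104 library stood above the highest DMSO library. The log2 fold change was 0.44 ± 0.13 (SE, 95% interval 0.16 to 0.72), with an unadjusted p of 0.00375 and an edgeR adjusted p of 0.991. DESeq2 on the same genes called it (0.43, adjusted p = 0.0356), among 31 of the 4394 genes to which it gave an adjusted p (0.706%). DESeq2 on all genes with a count did not (adjusted p = 0.0554), nor did limma-voom (adjusted p = 0.643), which called 0.139% of the genes tested. The gene spans chromosome 10, 80138698 to 80145828 on GRCm38.p6, and overlaps Cbarp by 1658 bases, a gene counted at 0.354 to 28.1 CPM. Whether counting used strand is unknown, so reads within the shared bases cannot be told apart. Whether these bases lie near the 3' end of Atp5d, where this method makes its reads, was not examined.

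Atp5b, the catalytic beta subunit and the most abundant member of all, lay at 726, 793, 677 and 931 CPM with DMSO and 959, 847, 928 and 853 CPM with RGX-104. DMSO replicate 4 overlapped the RGX-104 libraries and the other 3 DMSO libraries lay below them (log2 fold change 0.18, 95% interval -0.07 to 0.43). Against DMSO replicate 4 alone the value was -0.09. Atp5c1, the gamma subunit of the rotor, lay at 62.0 ± 15.4 CPM with DMSO and 68.3 ± 17.7 CPM with RGX-104.

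Subunit c, the proton-carrying ring, is made from 3 nuclear genes whose mature proteins are identical and whose mitochondrial targeting peptides differ. Atp5g3 lay at 316, 420, 410 and 400 CPM with DMSO and 500, 429, 436 and 439 CPM with RGX-104. The groups did not overlap, but DMSO replicate 2 and RGX-104 replicate 6 nearly met (log2 fold change 0.21, 95% interval -0.07 to 0.48, edgeR adjusted p = 1.00). Atp5g1 lay at 81.0, 110, 99.98 and 90.2 CPM and 133, 118, 133 and 106 CPM (0.35, 95% interval -0.07 to 0.77, edgeR adjusted p = 1.00). DMSO replicate 2 lay above RGX-104 replicate 8, and the other values kept the groups apart. The third gene, Atp5g2, lay at 9.76 ± 5.23 and 13.0 ± 5.75 CPM. Of the summed CPM of the 3 genes, Atp5g3 gave 78.5% ± 1.68 in DMSO and 76.9% ± 1.47 in RGX-104, and Atp5g1 gave 19.4% ± 1.03 and 20.9% ± 1.74 (SD, n = 4 each).

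Of the peripheral stalk, Atp5h was the listed member of complex V with the lowest log2 fold change. It lay at 183, 222, 175 and 204 CPM with DMSO and 172, 215, 195 and 140 CPM with RGX-104, and only RGX-104 replicates 5 and 8 lay below the DMSO range (-0.14, 95% interval -0.50 to 0.23). Atp5o, which joins stalk and head, lay at 106 ± 18.0 and 130 ± 17.5 CPM. Atp5j lay at 236 ± 27.3 and 270 ± 54.2 CPM. Atp5j overlaps Gabpa by 967 bases, the gene of a transcription factor subunit that acts on respiratory genes, which was counted at 5.93 to 30.0 CPM.

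Promoter sequences from RefSeq on GRCm38.p6, from 250 bases before to 50 after the start, were matched for 36 of the 47 members. Those of Atp5d and Atp5g3 are shown because these are the members whose groups did not overlap, and that of Atp5g1 because it encodes the same mature protein as Atp5g3. Capitals mark matches, on either strand, to the letters of nuclear respiratory factor 1 (NRF1, GCGCA and GCGC with 1 base between them), ETS factors such as GABP (CCGGAAG), YY1 (AAGATGGC), the oestrogen-related receptors (ERR, TCAAGGTCA) or the direct repeat bound by LXR with its partner RXR (AGGTCA and AGGTCA with 4 bases between them). All are written 5′ to 3′ on the strand of the gene. Atp5d is on the plus strand (chr10:80142025-80142324, the first of 2 overlapping windows), Atp5g3 on the minus strand (chr2:73911277-73911576) and Atp5g1 on the minus strand (chr11:96075582-96075881). The spans of Atp5d and Atp5g3 begin further out, at 80138698 and 73912464, so their windows lie inside the spans. Sequence at those outer ends was not searched.
Atp5d: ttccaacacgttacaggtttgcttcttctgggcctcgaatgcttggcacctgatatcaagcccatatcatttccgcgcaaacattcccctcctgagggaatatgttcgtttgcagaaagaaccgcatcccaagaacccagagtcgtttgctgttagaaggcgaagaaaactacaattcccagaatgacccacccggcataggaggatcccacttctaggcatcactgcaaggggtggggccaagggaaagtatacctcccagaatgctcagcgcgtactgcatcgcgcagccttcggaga
Atp5g3: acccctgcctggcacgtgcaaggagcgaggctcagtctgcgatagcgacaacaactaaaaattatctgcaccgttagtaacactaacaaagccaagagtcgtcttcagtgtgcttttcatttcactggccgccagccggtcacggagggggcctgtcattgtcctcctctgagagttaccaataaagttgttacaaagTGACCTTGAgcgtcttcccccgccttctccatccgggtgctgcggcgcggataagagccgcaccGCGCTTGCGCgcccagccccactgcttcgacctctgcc
Atp5g1: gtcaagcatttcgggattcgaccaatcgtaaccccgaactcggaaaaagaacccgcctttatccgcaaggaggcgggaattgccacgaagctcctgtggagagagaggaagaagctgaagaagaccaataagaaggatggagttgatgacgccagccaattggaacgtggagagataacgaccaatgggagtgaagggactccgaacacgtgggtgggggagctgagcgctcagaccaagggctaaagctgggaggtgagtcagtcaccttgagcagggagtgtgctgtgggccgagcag

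The Atp5g3 window held the NRF1 and the ERR letters, and the windows of Atp5d and Atp5g1 held none of the 5 motifs. A gene was counted once if any of its windows held a match, and 5 members had more than 1 window. The NRF1 letters were in 11 of the 36 members (30.6%), among them Atp5h, Atp5o, Sdha, Sdhd, Ndufa5 and Ndufa6. The same letters were in 13% of tested genes with a promoter sequence and in 5.19% of all 27025 genes with one. The ETS letters were in 10 (27.8%), among them Atp5j, Cox8a and Sdhb, against 23% and 9.93%, and the YY1 letters in 2 (5.56%), against 6.19% and 3.19%. The ERR letters were in 2 (5.56%), Atp5g3 and Sdhd, against 0.327% and 0.466%. They can overlap the single receptor site AGGTCA, which was in 6 (16.7%), against 14.4% and 18.1%. The LXR repeat was in 0 of the 36, and in 4 of the 27025 genes (0.0148%). The SP1 letters (GGGGCGGGG) were in 5 (13.9%), against 24.7% and 12.9%, and CCAAT in 15 (41.7%), against 42.5% and 41.1%. In all 11 motif spellings were searched, the rest being narrower forms of the NRF1, ETS and YY1 letters. A match or its absence is a description of these letters in these windows.

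Most paralogs made for other tissues had few counts or none. Cox4i2, an isoform known from lung, reached at most 0.0411 CPM in any library, and Cox6a2 and Cox7a1, the isoforms of heart and muscle, at most 0.653 and 0.617 CPM. Cox7b2, Cox8b, Cox8c, Ndufa4l2 and Cyct, of which Cyct is the cytochrome c of testis, had no count. The rows of 4 listed subunits that respiring cells need were also at 0, so a 0 in these data need not mean absence. The testis isoform Cox6b2 lay at 8.89 ± 7.27 CPM with DMSO and 5.04 ± 5.48 CPM with RGX-104 beside Cox6b1 at 295 ± 32.9 and 287 ± 18.0 CPM. Cox7a2l, a relative of Cox7a2 that helps to join complexes III and IV into supercomplexes, lay at 263 ± 40.8 and 270 ± 29.5 CPM.

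Other genes of the pathway were read by list. Of 31 further genes, the remaining subunits of complexes I, III and V and the ATP synthase inhibitor Atpif1, all tested, 0 were called, 18 lay above 0 and 13 below, and the median log2 fold change was 0.06. Ndufs6, a complex I subunit at the tip of the matrix arm, was the 1 member at an unadjusted p under 0.05. It lay at 58.4, 74.4, 76.2 and 82.3 CPM with DMSO and 149, 121, 107 and 114 CPM with RGX-104, with no overlap (0.74 ± 0.22 SE, edgeR adjusted p = 0.955). Of 43 tested assembly factors 0 were called and the median was 0.17, with 27 above 0 and 16 below. Cox14, an assembly factor of complex IV, was the 1 at an unadjusted p under 0.05, at 124 ± 20.4 CPM with DMSO and 88.0 ± 14.6 CPM with RGX-104 (-0.51, edgeR adjusted p = 1.00).

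Of 16 tested regulators of respiratory genes and of mitochondrial gene expression, 0 were called, with a median of 0.06. Ppargc1b, a coactivator of mitochondrial biogenesis, lay at 68.7, 27.6, 43.5 and 48.1 CPM with DMSO and 72.5, 73.7, 73.7 and 78.9 CPM with RGX-104. The groups did not overlap, and the RGX-104 libraries were far closer together than the DMSO libraries (0.65 ± 0.30 SE, edgeR adjusted p = 1.00). Its relative Ppargc1a had no count. Of 13 tested genes of the tricarboxylic acid cycle 0 were called, with 6 above 0, 7 below and a median of -0.13. Dlst, a subunit of 2-oxoglutarate dehydrogenase, lay at 93.9 ± 13.6 CPM with DMSO and 63.7 ± 20.9 CPM with RGX-104 (-0.58, edgeR adjusted p = 1.00). Of 18 tested genes of mitochondrial membranes and import 0 were called, with 9 above 0 and 9 below. Tomm40, the channel of the outer membrane, lay at 51.0, 45.3, 58.0 and 51.5 CPM with DMSO and 100.3, 98.3, 107 and 99.7 CPM with RGX-104, far apart on both sides (0.96 ± 0.23 SE, edgeR adjusted p = 0.395).

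Of the ribosomal RNAs made from mitochondrial DNA, mt-Rnr1 fell by 0.92 in log2 fold change (adjusted p of edgeR 1.10e-05). The other, mt-Rnr2, had a log2 fold change of -0.31 (edgeR adjusted p = 1.00), and its groups overlapped.

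The spread between libraries was wider for less abundant members. The median coefficient of variation of the 28 members at 100 CPM or more was 12.8% in DMSO and 11.5% in RGX-104, and that of the 15 below was 31.7% and 20.7%. Over all genes tested at 100 CPM or more the medians were 17.6% and 13.6%. DMSO was the more variable group in 28 of 43 members (65.1%), and in 64.1% of all genes tested, so the members shared this with other genes. Ndufv1 and Ndufb8 varied most in DMSO. Ndufv1 lay at 104, 20.8, 87.8 and 104 CPM and Ndufb8 at 51.1, 17.2, 57.0 and 94.9 CPM, with DMSO replicate 2 the lowest for both. In RGX-104 they ranged from 63.9 to 82.0 and from 49.5 to 65.2 CPM.

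**Figure D4:**
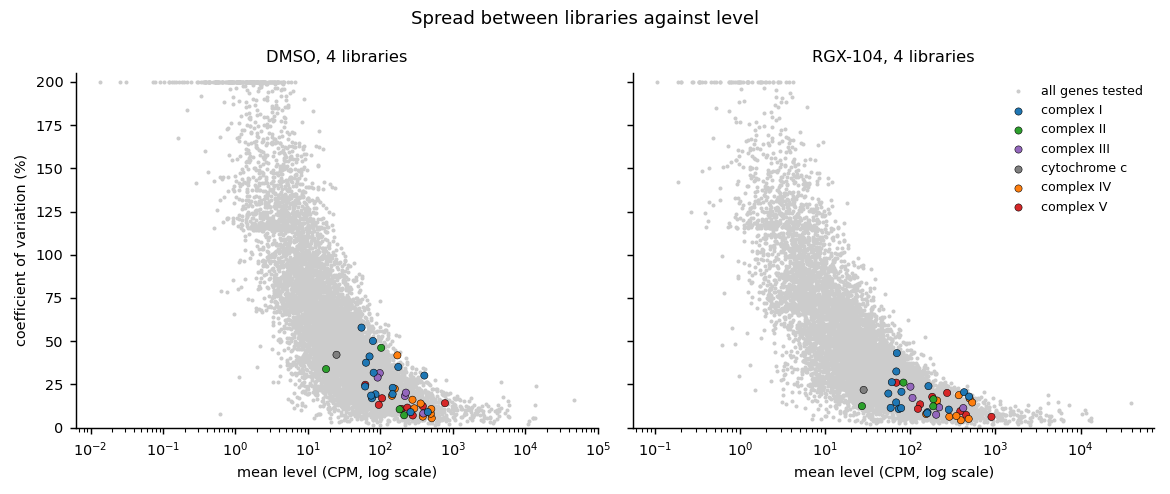
Coefficient of variation between the 4 libraries of a group (y axis, %) against mean level (x axis, CPM, log scale) in DMSO (left) and RGX-104 (right). Grey points are all genes tested and coloured points the 43 members by complex; members lie to the right of most genes, and the largest member value falls from 57.9% (Ndufb8) in DMSO to 43.1% (Ndufa10) in RGX-104.

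Another 4 members, Ndufs3, Ndufa7, Uqcrc1 and Atp5a1, were listed at 0 in all 8 libraries. They encode a core subunit of complex I, an accessory subunit of complex I, a core protein of complex III and the alpha subunit of the ATP synthase, which respiring cells need. A total of 3 counts over a group is the upper limit for a count of 0 at about 95% confidence. It corresponds to 0.0381 CPM with DMSO and 0.0363 CPM with RGX-104, which covers counting error alone. The tested members of the F1 head ranged from 65.1 to 839 CPM over the 8 libraries. Uqcrc2, the other listed core protein of complex III, lay at 222 CPM. Of the 5 protein-coding genes on each side of these members in chromosome order, 28 of 40 (70%) were also at 0, against 172 of 430 (40%) beside the members with counts and 46.6% of all 21887 protein-coding genes with a row. Ndufs3 lay in an unbroken run of 7 genes at 0, Ndufa7 of 13, Uqcrc1 of 5 and Atp5a1 of 6. Celf1, an RNA-binding protein gene, and Daxx, a histone chaperone gene, were among the neighbours at 0, whereas Shisa5, 4 places from Uqcrc1, had 439215 counts. Why these rows are at 0 was not tested, and no statement on the treatment can be made for them.

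**Figure D5:**
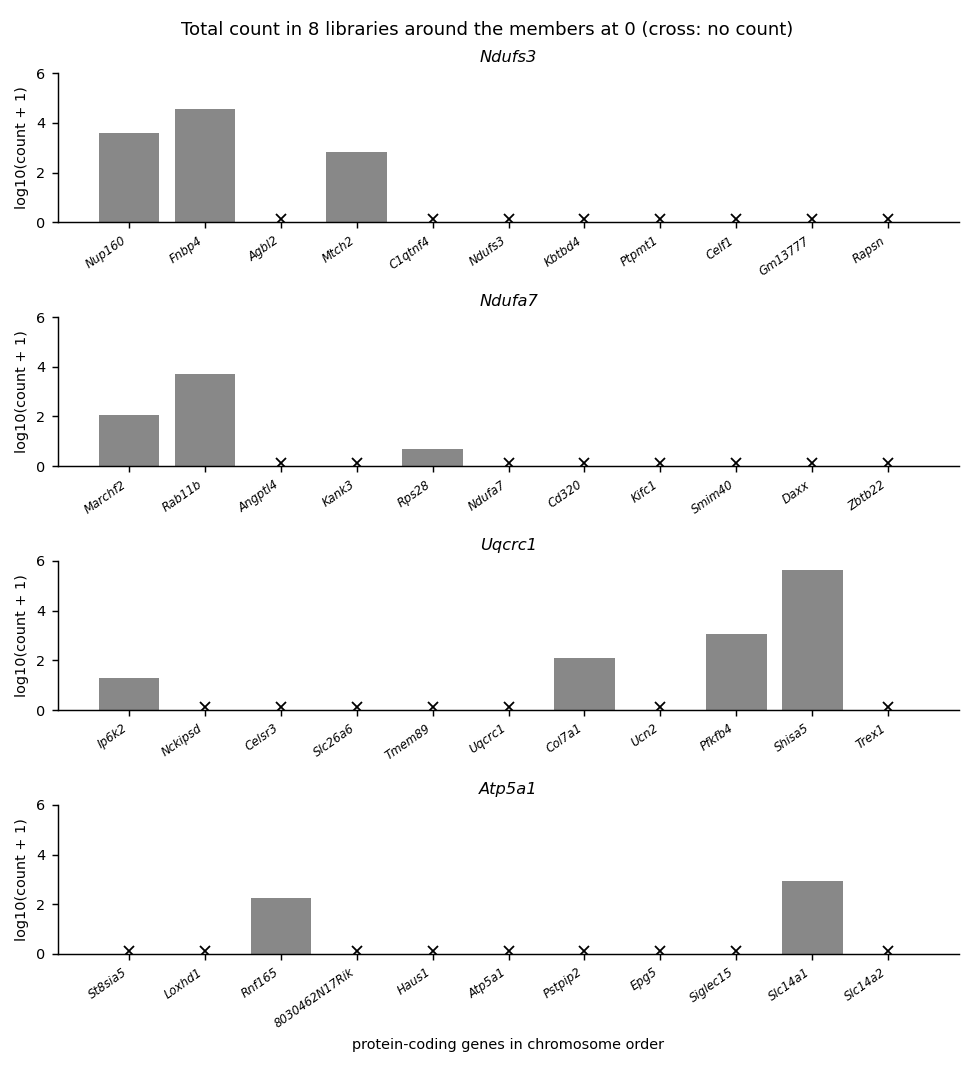
Total count in the 8 libraries, as log10(count + 1) (y axes), of each of the 4 members at 0 and of the 5 protein-coding genes on either side of it in chromosome order (x axes, gene symbols). Crosses mark genes with no count; each member sits in a run of 5 to 13 such genes, while Fnbp4, Rab11b and Shisa5 nearby have 37639, 4963 and 439215 counts.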

How the data were processed

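The deposited values are raw read counts per gene symbol, 1 column per library, per the file headers and the values. Per the labels' protocols, total RNA went into QuantSeq 3' mRNA libraries. The submitters' processing notes list GRCm38, STAR 2.7.8a, DESeq2 1.4 and R 4.1.0 with no role. What counted the reads, on which annotation and strand, and whether with molecular identifiers, is not given in the sources used here, so counting intervals cover counting error only.

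The test was the quasi-likelihood test of edgeR 4.0.16 in R 4.3.3, TMM, group as the only term, filterByExpr with a minimum count of 10 (10037 of 41730 rows kept), Benjamini-Hochberg over all genes tested and a threshold of 0.05. SE is the log2 fold change over the root of F, and 95% intervals use it. The fit was tested on simulated data. CPM are counts per 1000000 of the library total. Alternatives used limma 3.58.1 and DESeq2 1.42.0. List symbols without a row were matched by RefSeq synonym (Atp5f1 as Atp5pb, Usmg5 as Atp5md).

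Members, lists and the naming rule were chosen with earlier results of these data known. The rule names, per complex, the most abundant member and those of highest and lowest log2 fold change. It adds members at an unadjusted p under 0.05 or without overlap, Cycs, Atp5g1 and Atp5g3, and from each pathway list up to 3 genes at an unadjusted p under 0.05. Library numbers are not shared between groups, and the labels name no batch.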

Additional observations from a re-analysis of the deposited data

Results flagged for a closer look

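In 96 sets of 4 libraries examined (43 members and 5 complex sums in both groups), 10 had 1 library that stood apart from the 3 others. By chance about 1 set in 20 would. In DMSO replicate 1, Ndufv2 stood at 83.7 CPM against 52.6 to 56.2 CPM, Atp5o at 132 against 94.8 to 100.1 CPM, and Cox5b at 105.0 against 156 to 161 CPM. In DMSO replicate 2, Uqcrc2 stood at 294 against 200 to 207 CPM, and with it the complex III sum at 1187 against 955 to 984 CPM. In DMSO replicate 4, Cox7c stood at 472 against 524 to 530 CPM. In RGX-104 replicate 5, Atp5g3 stood at 500.3 against 429 to 439 CPM and Ndufb7 at 54.3 against 83.4 to 88.3 CPM. Ndufa10 stood at 114 CPM in RGX-104 replicate 6 against 53.4 to 56.2 CPM, and Ndufv2 at 53.3 CPM in RGX-104 replicate 7 against 71.3 to 74.6 CPM.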

How the results depend on the processing

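The 11 calls over all genes became 31 with DESeq2, 44 with DESeq2 on all genes with a count (chosen after seeing the data) and 7 with genes detected as a covariate, and ranged from 8 to 14 when 1 library was left out. The members called higher were 1 with DESeq2, Atp5d, and 0 in the other alternatives. Members higher at an unadjusted p under 0.05 were 2 (4.65% of 43) with DESeq2, where 3.2% of all genes were, 2 with DESeq2 on all genes with a count (4.91% of all genes), 2 with robust dispersion (2.08%) and 4 (9.3%) with limma-voom (3.99%), and ranged from 1 to 4 when 1 library was left out (2 without DMSO replicate 2, beside 2.63% of all genes, and 4 without DMSO replicate 4, beside 3.53%). Members lower were 1 (2.33%) against DMSO replicate 4 alone (1.58% of all genes), and 0 to 1 when 1 library was left out (1 without RGX-104 replicate 6, beside 1.8%). The complex IV median was -0.053 against DMSO replicate 4 alone, a fit in which that library is assumed to vary like the RGX-104 libraries. When 1 library was left out the median log2 fold change of all members stayed between 0.02 and 0.08, of complex V between 0.15 and 0.24 and of complex II between -0.17 and -0.02, while those of complex I (-0.05 to 0.05), complex III (-0.10 to 0.09) and complex IV (-0.01 to 0.11) crossed 0. The log2 ratio of the complex V sum ranged from 0.18 to 0.26 when 1 library was left out, and was 0.16 with the 7 remaining subunits (both chosen after seeing the data). With genes detected as a covariate Cox6c was at -0.0015 and Cycs at -0.16. Against DMSO replicate 4 alone Ndufa6 was at -0.041, Sdhb at 0.045, Uqcrb at -0.22, Cox6c at -0.0085, Cox5a at -0.040, Atp5b at -0.088 and Cycs at -0.083. Leaving out 1 library gave ranges through 0 for Ndufa5 (-0.052 to 0.21), Ndufa6 (-0.013 to 0.17), Uqcrh (-0.011 to 0.13), Cox6c (-0.020 to 0.14), Cox6a1 (-0.19 to 0.019) and Cycs (-0.027 to 0.43). The lowest came without RGX-104 replicate 5 for Ndufa5 and Uqcrh, without RGX-104 replicate 7 for Ndufa6 and Cox6c, and without DMSO replicate 2 for Cycs, and the highest of Cox6a1 without RGX-104 replicate 7. Ndufa5 was also below 0 without DMSO replicate 1 (-0.00039). The causes were not tested. For members under 100 CPM the spread between libraries (median coefficient of variation 31.7% in DMSO, 20.7% in RGX-104) limits the size of change that can be told from 0. No paired analysis was possible because the groups share no library number.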
